A study of Arabidopsis thaliana with 12 samples.

Results

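The rank-steady probes are 150 of the 3439 numbered array probes, chosen by how little their place in the brightness order moved across 12 arrays of Arabidopsis thaliana RNA. On each array the probes were ranked by deposited intensity, with the brightest at 1. A probe could enter if it was above 0 on all 12 arrays (2378 probes), had a mean rank above 0.5 (1618 probes) and was not among the 100 probes with the highest mean rank, which left 1518. The 150 with the smallest range of rank, highest minus lowest over the 12 arrays, were taken. The ranks of both light treatments were therefore used to choose the members. Small ranges and small differences between the treatments are a property of that choice, and are given here as a description with no test.

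Arabidopsis is a small flowering plant, and all plants here were wild type of the Landsberg ecotype, a common laboratory strain. The blue-light group has 6 arrays, from plants that finished their growth with 48 hours of blue light at 200 µE. The white-light group has 6 arrays, from plants kept for 48 hours in white light at 20 µE. Colour and fluence changed together. The labels number the arrays of each group 1 to 6, and state neither the organ nor whether separate plants or cultures were used.

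Plants sense blue light through cryptochromes and phototropins, photoreceptors that alter the activity of many nuclear genes, and strong light also acts through the state of the chloroplast. Genes for photosystem and antenna proteins and for protective pigments are textbook examples of transcripts that follow the light. Transcripts that hold their level through such changes serve as internal standards, and the genes usually tried for that purpose encode actins, tubulins, ubiquitin and translation factors. A steady rank is not the same as a steady level, because it says only that the probe kept its place among the other probes. A rank also orders spots by brightness and not transcripts by amount, since probes differ in length and in how well they hybridize.

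The members were bright. Their mean rank had a median of 0.926, with quartiles of 0.887 and 0.942, and ran from 0.576 to 0.960. The other 1368 probes that passed the same level filters had a median mean rank of 0.681. Of the 145 probes with a mean rank above 0.9 that could enter, 105 (72.4%) became members, against 42 of 263 (16.0%) between 0.8 and 0.9. Between 0.7 and 0.8 there were 2 members among 344 probes, between 0.6 and 0.7 none among 382, and between 0.5 and 0.6 a single member among 384. The median range of rank ran the same way, at 0.0872 above a mean rank of 0.9, 0.213 in the next band and 0.419 in the dimmest band. When the 100 brightest probes were allowed in, 95 of them entered, and 55 of the 150 members were kept. The list is thus, by its rule, mostly a list of the next brightest probes on the array.

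**Figure D1:**
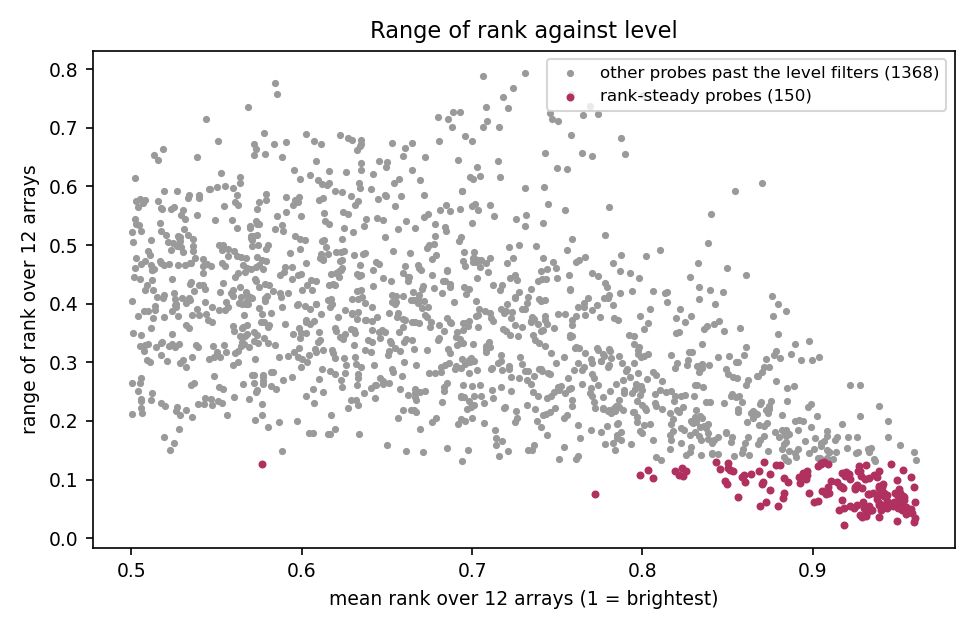
Range of rank over the 12 arrays (vertical axis, no unit) against mean rank (horizontal axis, 1 is the brightest probe) for the 1518 probes that passed the level filters. The 150 members form the lower edge, and 105 of them lie above a mean rank of 0.9, where ranges are small for most probes.

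Their range of rank went from 0.0221 to 0.131, with a median of 0.0837, against a median of 0.356 among the other 1368 probes. The last members inside the limit were probe 3279 at 0.130 and probe 3593 at 0.131. The first probes outside it were probe 2521 (AT5G47890) at 0.131 and probe 890 (AT4G27250) at 0.132, so no gap sets the list apart from its neighbours. Within the blue-light arrays alone the median range of a member was 0.0346, and within the white-light arrays 0.0542. For the other probes the same medians were 0.120 on blue-light and 0.252 on white-light arrays. A member's highest rank stood on a white-light array for 102 of the 150 and its lowest rank for 90, and white-light array 6 alone held the highest rank of 31 members. These counts were not made for the other probes, whose ranks also ranged wider on the white-light arrays. The treatment means of the rank differed by a median of 0.0282 in size among the members and by at most 0.0843.

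**Figure D2:**
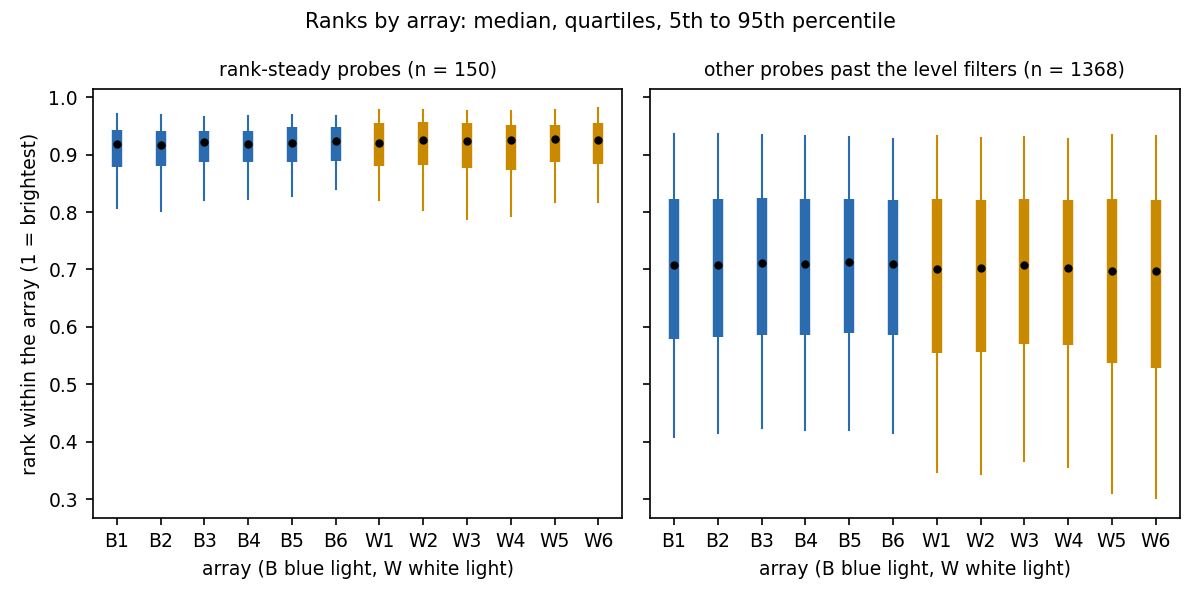
Rank within each array (vertical axis, 1 is the brightest) on blue-light arrays B1 to B6 and white-light arrays W1 to W6. Dots are medians, thick bars quartiles and thin lines the 5th to 95th percentile. The 150 members sit high and narrow on every array, and the 1368 other probes spread wider on the white-light arrays.

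The 4 steadiest probes show what such a rank looks like in intensity. None of them has a gene in the platform's annotation. Probe 4594, with the smallest range of all, had deposited intensities of 1.39 at the lowest, 1.80 at the median and 2.08 at the highest on the blue-light arrays, against 0.430, 1.03 and 1.48 on the white-light arrays. Its ranks ran from 0.912 to 0.924 under blue light and from 0.908 to 0.930 under white light, so the ranks overlapped fully and the intensities only at their ends. After quantile normalization, which gives every array the same distribution of intensities, its log2 level was 0.25 ± 0.080 under blue light and 0.32 ± 0.16 under white light (SD, n = 6 each).

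Probe 3785 had nearly equal group means but a wider spread, with normalized log2 levels of 0.96 ± 0.12 under blue light and 0.95 ± 0.30 under white light (SD, n = 6 each). Probe 1724 had 1.14 ± 0.22 under blue light and 1.47 ± 0.58 under white light (SD, n = 6 each), and its groups overlapped. Probe 1012, second in the list, had ranks between 0.943 and 0.960 under blue light and between 0.961 and 0.971 under white light. Its normalized log2 levels were 0.99 ± 0.19 under blue light and 1.48 ± 0.15 under white light (SD, n = 6 each), with every blue-light array below every white-light array. A place among the steadiest ranks therefore did not require that the treatments overlap.

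The intensity that a step in rank covers grows towards the top of an array. Near rank 0.55, a stretch of 0.05 in rank covered 0.24 on the normalized log2 scale, a 1.18-fold difference in intensity. Near rank 0.9 the same stretch covered 0.72, or 1.65-fold, and near 0.95 it covered 1.46, or 2.74-fold. The 2 dimmest members were among the flattest in level. Probe 3980, at a mean rank of 0.576, had normalized log2 levels of -2.14 ± 0.12 under blue light and -2.19 ± 0.21 under white light (SD, n = 6 each). Probe 571, at a mean rank of 0.772, had -1.04 ± 0.083 under blue light and -1.20 ± 0.12 under white light (SD, n = 6 each).

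On the log2 scale the members were less flat than their ranks. The difference between the highest and lowest of a member's 12 normalized values had a median of 1.41, a 2.65-fold span, and reached from 1.30-fold to 11.3-fold. Among the other 1368 probes the median span was 4.70-fold. The SD over the 6 arrays of a group had a median of 0.217 under blue light and 0.382 under white light. It was larger under white light for 121 of the 150 members. The same held for 1178 of the other 1368 probes and for 1959 of all 2378 probes above 0 on all arrays.

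The fitted log2 fold change, blue over white, had a median of -0.13 over the members, with quartiles of -0.61 and 0.31 and extremes of -2.25 and 2.099. It was above 0 for 57 members and below 0 for 93, a split that follows the scaling, since without normalization between arrays it was 133 and 17, and under median centring 99 and 51. Directions below are on the quantile-normalized scale. Its median size was 0.49, or 1.40-fold, against 0.79, or 1.73-fold, over all 2776 tested probes. A difference of at least 2-fold was fitted for 24 members (16.0%), where 40.1% of all tested probes had one.

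The limma fit across all tested probes called 60 of the 150 members at an adjusted p under 0.05, where 45.3% of all tested probes were called. Of these members 21 were higher under blue light (19.6% of all tested probes were called higher) and 39 were lower (25.7% of all tested probes were called lower). This split also followed the scaling. Without normalization between arrays 71 members were called higher and 3 lower, where 31.1% and 11.5% of all tested probes were. Under median centring 52 were called higher and 13 lower, where 22.7% and 26.8% of all tested probes were. The fitted difference was under 2-fold for 37 of the 60, against 287 of the 1257 called among all tested probes. The groups did not overlap on the normalized log2 scale for 42 members, 17 higher and 25 lower under blue light, where 28.1% of the 2378 probes above 0 on all arrays did not overlap. Nothing is read from these counts, since the choice of members used the same arrays. The members are called rank-steady here, since the rule chose them by rank and not by level. Arrays 1 and 2 of a group resembled each other, as did 3 and 4 and also 5 and 6. With the fit made on the means of these pairs, 13 members were called, where 18.8% of all tested probes were.

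**Figure D3:**
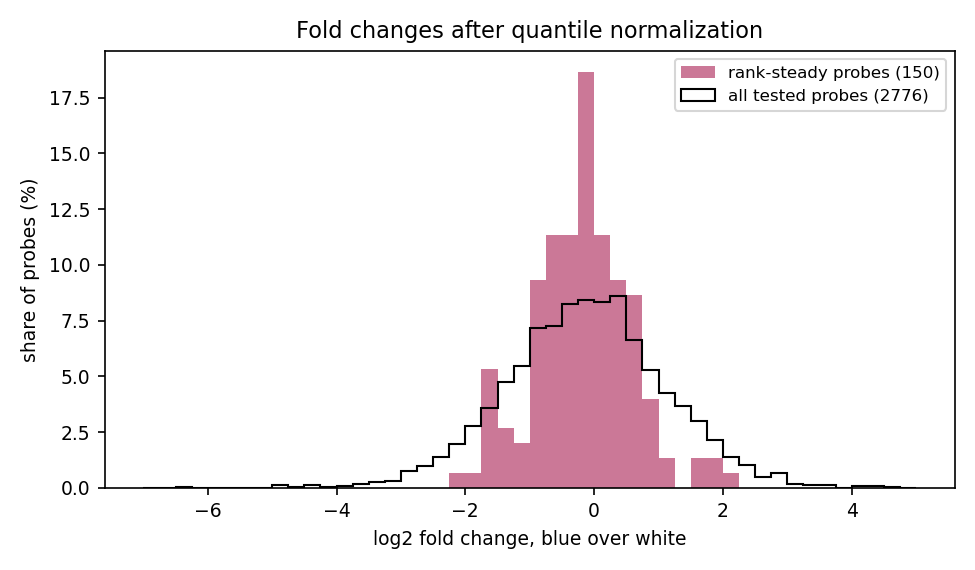
Share of probes (vertical axis, %) by log2 fold change, blue over white, after quantile normalization (horizontal axis), for the 150 members (filled) and all 2776 tested probes (line). The members gather around a median of -0.13 and reach -2.25 and 2.099.

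The members with the largest fitted differences stayed near the top of the array under both lights. Probe 885 had deposited intensities of 6.67, 8.92 and 11.3 (lowest, median, highest) on the blue-light arrays, against 0.399, 1.14 and 2.61 on the white-light arrays. The treatments did not overlap. Its fitted log2 fold change was 2.099 ± 0.23 (SE), or 4.28-fold, yet its rank only ranged over 0.0872.

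Probe 2248 had intensities of 5.59, 6.43 and 12.5 under blue light, against 0.409, 0.745 and 4.49 under white light, again with no overlap. Its log2 fold change was 1.89 ± 0.41 (SE), and its normalized log2 level under white light had an SD of 0.93 over 6 arrays. Its ranks lay between 0.976 and 0.991 under blue light and between 0.874 and 0.975 under white light.

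In the other direction, probe 4466 had intensities of 0.968, 1.48 and 1.94 under blue light, against 0.805, 5.56 and 9.27 under white light. The deposited intensities overlapped, and the normalized levels did not. Its log2 fold change was -2.25 ± 0.35 (SE). Probe 3533 had intensities of 1.05, 1.41 and 2.09 under blue light, against 1.86, 2.66 and 3.95 under white light, with a log2 fold change of -1.94 ± 0.21 (SE) and no overlap on the normalized scale. Probe 4466 is listed with 2 genes and so is not named, and the other three probes are not listed in the annotation.

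Of the 150 members, 62 (41.3%) are listed in the platform's annotation, 28 with a single gene and 34 with several, and 88 are not listed. In the whole series 1562 of 3439 probes (45.4%) are listed, 692 of them with a single gene. All 28 genes were found in the RefSeq gene table, and 6 of them carry a symbol besides their locus number. Among the 28, the fitted log2 fold change was above 0 for 8 and below 0 for 20, with a median of -0.34 and extremes of -1.61 and 1.01. Over all 2776 tested probes it was above 0 for 1281 and below 0 for 1495. The split of the 28 also followed the scaling. Without normalization between arrays only PSAN, XERICO and AT3G06570 among them were below 0. A list of 40 symbols was also looked up, made up of usual internal standards such as ACT2 and UBQ10, of LHCA, LHCB and photosystem genes and of blue-light and high-light genes such as CHS and CRY1. Of these, 0 have a probe annotated to them alone and 1 has a probe shared with other genes.

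The members held 2 photosystem genes. PSBY, a small subunit of photosystem II, stood at place 5 in the list, with a range of rank of 0.0363. Its deposited intensities were 1.93, 2.42 and 2.66 on the blue-light arrays, against 0.512, 0.855 and 1.42 on the white-light arrays. The normalized log2 levels were 0.69 ± 0.052 under blue light and 0.31 ± 0.17 under white light (SD, n = 6 each), every blue-light array above every white-light array, a fitted difference of 0.38 ± 0.16 (SE). This difference was not called (limma adjusted p = 0.0745). PSAN, a photosystem I subunit on the lumen side of the thylakoid, had intensities of 1.73, 2.06 and 3.35 under blue light, against 1.90, 2.48 and 2.94 under white light. Its normalized log2 levels were 0.62 ± 0.51 under blue light and 1.73 ± 0.75 under white light (SD, n = 6 each), which overlapped, with a fitted log2 fold change of -1.10 ± 0.35 (SE).

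The other genes of photosynthesis and chlorophyll synthesis with a probe of their own, 11 with these members, were spread over all levels. They were picked by symbol with earlier results known, and 9 could be tested, of which 2 were higher and 2 lower under blue light by limma, a share near the 45.3% of all tested probes. PSBW, another small photosystem II subunit, and LHB1B2, an antenna protein, are among the 100 brightest probes that the rule set aside, as is NdhS, a subunit of the chloroplast NDH complex. PSBW was higher under blue light, with a log2 fold change of 1.66 ± 0.20 (SE, limma adjusted p = 4.04e-05), although its rank ranged over only 0.00727. HEMA3, also of this list, was higher as well, with 1.60 ± 0.27 (SE, limma adjusted p = 0.000402), and its rank ranged over 0.496. LHB1B2 was lower, with -1.68 ± 0.34 (SE, limma adjusted p = 0.00153). These p-values count the 6 arrays of a group as independent, although the arrays resembled each other in pairs. PRK, a Calvin cycle enzyme, just missed the list at place 166, with normalized log2 levels of -0.84 ± 0.22 under blue light and -0.87 ± 0.45 under white light (SD, n = 6 each).

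Genes of signalling and transcription were also among the members. CML30, a calmodulin-like protein of the family that binds calcium, had intensities of 2.39, 2.68 and 2.81 under blue light, against 0.589, 3.54 and 6.22 under white light. Its blue-light values were the tighter, at a normalized log2 level of 0.85 ± 0.044, against 1.80 ± 0.67 under white light (SD, n = 6 each). The groups overlapped, and the fitted log2 fold change was -0.95 ± 0.28 (SE).

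XERICO, a RING-type protein that raises abscisic acid levels, had intensities of 1.29, 2.41 and 3.41 under blue light, against 1.07, 2.64 and 7.11 under white light. Its normalized log2 levels were 0.57 ± 0.63 under blue light and 1.94 ± 0.88 under white light (SD, n = 6 each), with overlapping groups and a fitted log2 fold change of -1.37 ± 0.41 (SE). A difference of this size went with a range of rank of 0.0986.

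RAP74, a subunit of the general transcription factor TFIIF, had normalized log2 levels of 1.41 ± 0.44 under blue light and 0.82 ± 0.35 under white light (SD, n = 6 each). The receptor-like kinase gene AT2G39360 had 1.077 ± 0.53 under blue light and 0.33 ± 0.19 under white light (SD, n = 6 each). PRA1.B6, of a family of prenylated RAB acceptors that take part in vesicle traffic, had 0.96 ± 0.34 under blue light and 1.31 ± 0.73 under white light (SD, n = 6 each). The groups overlapped for all 3 of these genes.

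**Figure D4:**
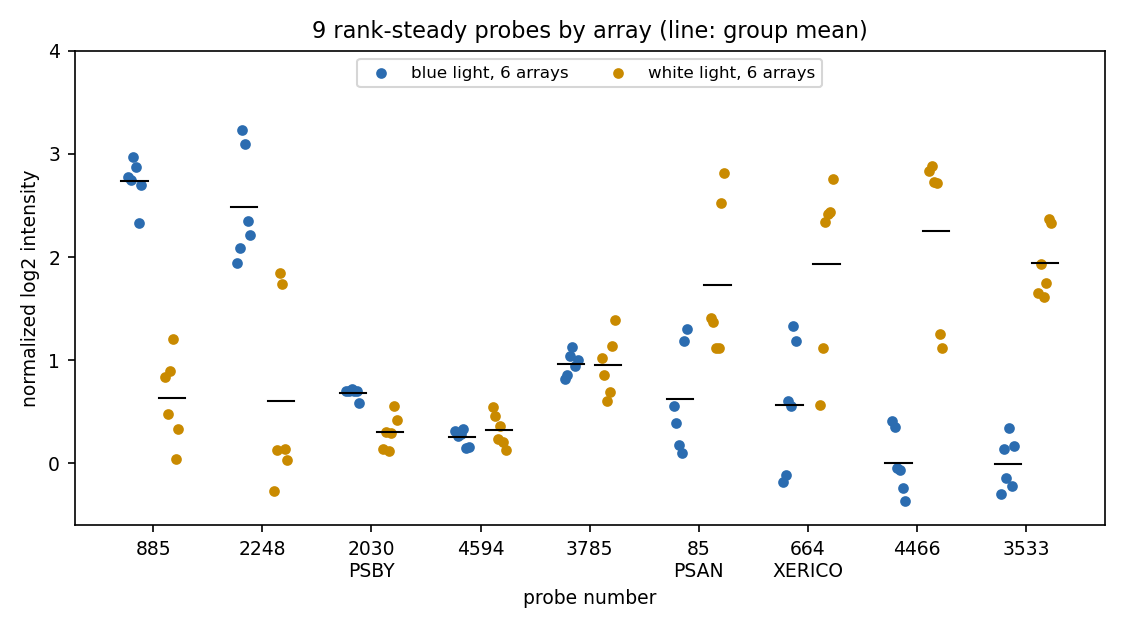
Normalized log2 intensity (vertical axis) of 9 members on each blue-light array (left of each pair) and white-light array (right), with group means as lines. Probes 885 and 2248 lie higher and probes 4466 and 3533 lower under blue light on every array, probes 4594 and 3785 are level, and PSAN and XERICO overlap.

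Several members have metabolic or organelle roles. AT4G29890, annotated as a choline monooxygenase-like protein, did not overlap between the treatments, at 1.67 ± 0.16 under blue light and 0.69 ± 0.28 under white light (SD, n = 6 each). AT4G18180, a pectin lyase-like protein among the brightest members, kept its rank between 0.970 and 0.975 under blue light and between 0.917 and 0.979 under white light. AT4G19900, a glycosyltransferase, had the highest fitted log2 fold change of the 28, 1.01 ± 0.42 (SE), with groups that overlapped. AT1G15410, of the aspartate-glutamate racemase family, was close to level at -0.62 ± 0.15 under blue light and -0.36 ± 0.20 under white light (SD, n = 6 each), as was the oxidoreductase gene AT3G04650 at 0.61 ± 0.24 under blue light and 0.50 ± 0.27 under white light (SD, n = 6 each).

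The plastid membrane protein gene AT2G38550, of a family that exports fatty acids, had normalized log2 levels of -0.41 ± 0.14 under blue light and 0.54 ± 0.65 under white light (SD, n = 6 each). AT4G27700, a rhodanese-like protein, had -0.30 ± 0.33 under blue light and 0.63 ± 0.61 under white light (SD, n = 6 each). AT1G62150, of the mTERF family of organelle gene regulators, had -0.31 ± 0.12 under blue light and 0.018 ± 0.50 under white light (SD, n = 6 each). AT3G06570, the member gene furthest below 0, had intensities of 1.22, 1.47 and 1.55 under blue light, against 0.376, 4.92 and 5.63 under white light, and its log2 fold change of -1.61 ± 0.47 (SE) stood beside a white-light SD of 1.25 on the log2 scale. In this gene and in CML30 and AT2G38550 the white-light arrays were far wider apart than the blue-light arrays. Of the called members named here, CML30, AT2G38550, AT4G27700 and probe 1012 had fitted log2 fold changes above 0 instead of below without normalization between arrays.

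The smallest fitted differences among the 28 genes were those of AT5G06010, AT5G19540 and AT3G04650. AT5G06010 had a fitted log2 fold change of -0.05 ± 0.35 (SE), with normalized SDs of 0.45 under blue light and 0.76 under white light. AT5G19540 had -0.09 ± 0.23 (SE), with deposited intensities of 0.904, 1.028 and 1.85 under blue light, against 0.357, 0.769 and 0.870 under white light. A fitted value near 0 with an SE of this size does not show that a gene did not change.

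The members' deposited intensities were also read array by array. Their geometric mean was 1.73, 1.76, 1.86, 1.87, 1.59 and 1.66 on blue-light arrays 1 to 6, against 1.081, 1.12, 1.55, 1.55, 0.542 and 0.553 on white-light arrays 1 to 6. The lowest blue-light value was above the highest white-light value, and white-light arrays 5 and 6 were far below the rest. For arrays with the same number, the log2 ratio of blue to white averaged 0.84 ± 0.60 (SD, n = 6 pairs), from 1.20-fold for arrays 3 to 3.002-fold for arrays 6. These ratios came in near-equal pairs, for arrays 1 and 2, 3 and 4, and 5 and 6, so that the 6 are not independent. The mean ratio was 1.78-fold for the members, against 1.43-fold for the geometric mean of all probes above 0 on all arrays and 1.28-fold for the median of all probes, which was below 1 for arrays 3 and 4. A larger ratio was not particular to the members. The tested probes were cut by mean rank into 5 classes, and without normalization their median log2 fold change rose with level. It was -0.21 in the dimmest class and 0.83 in the class next to the brightest, which holds 1 member among 555 probes. The members' part of the summed intensity was nearly the same on all arrays, 9.96% ± 0.146 under blue light and 9.81% ± 0.256 under white light (SD, n = 6 each). Against the median of all probes the members stood 8.98-fold ± 0.713 higher on the blue-light arrays and 6.47-fold ± 0.676 higher on the white-light arrays (SD, n = 6 each), with no overlap. Brightness of an array and the amount of labelled RNA cannot be told apart here.

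**Figure D5:**
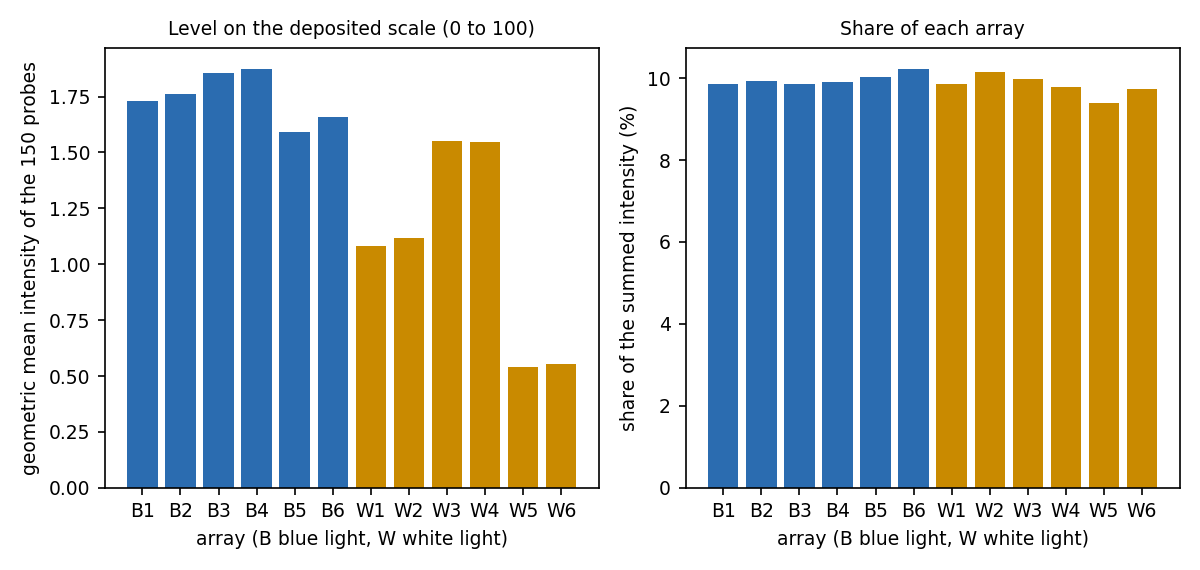
Left, geometric mean of the 150 members' deposited intensities (vertical axis, scale 0 to 100) on each blue-light (B) and white-light (W) array. Right, their share of the array's summed intensity (vertical axis, %). The level runs from 0.542 to 1.87, while the share keeps between 9.39% and 10.2%.

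When each array was scaled to the geometric mean of the members in place of quantile normalization, limma called 1430 probes (51.5% of 2776), of which 464 were higher and 966 lower under blue light, so that 32.4% of the calls were higher. Quantile normalization gave 43.3% higher, and the deposited scale 73.0%. With this scaling 60 members were called, 29 higher and 31 lower. The sign of the fitted difference was not the same under both scalings for 298 of the 2776 probes. Calls under both scalings numbered 1142, with the same sign in all of these, which is 90.9% of the quantile calls and 79.9% of the calls scaled to the members. The same 5 classes by mean rank, of equal size, were read under these scalings. In the dimmest class, which holds no member, the median log2 fold change was -1.03 under scaling to the members and -0.40 under quantile normalization. In the brightest class, which holds 148 members, it was 0.10 when scaled to the members and -0.03 after quantile normalization. Without normalization the dimmest class had -0.21, so that its median was below 0 under all 3 scalings and differed in size. The brightest class had 0.94 without normalization.

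The choice was repeated without each pair of arrays in both groups, and the probes then chosen were read on the 4 arrays that had not been used. Those 4 arrays took no part in the choice they are read for. Without arrays 1 and 2, the 150 probes chosen had a median range of rank of 0.0461 on arrays 1 and 2 of both groups, against 0.179 for the 1387 other probes that could have been chosen. The 40 other probes at the level of the chosen ones, between the quartiles of their mean rank, had a median of 0.0739, nearer to the chosen probes. Without arrays 3 and 4 the medians on those arrays were 0.0398 for the chosen probes and 0.0750 for 64 others at their level. Without arrays 5 and 6 they were 0.0600 for the chosen probes and 0.0843 for 73 others at their level. The chosen probes had the smaller median range in all 3 cases. The 2 sides were not fully matched in level, since the chosen median covers all 150 probes, also those outside the quartiles. Whether level accounts for the remaining difference was not tested.

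The limit that chose the probes was tightest when arrays 5 and 6 were left out. Of the probes chosen without them, 68 of 150 (45.3%) moved further on arrays 5 and 6 than the limit of 0.0718 that had chosen them, and 1 was at 0 on at least 1 of these arrays. On arrays 3 and 4 the same held for 12 of 150 (limit 0.112), and on arrays 1 and 2 for 23 of 150 (limit 0.0992). Of the other probes that could have been chosen, 11.4% stayed within the limit on arrays 5 and 6. On arrays 3 and 4 it was 34.4%, and on arrays 1 and 2 it was 23.1%. The order was the same for chosen and other probes, and the limits differed, so the counts do not single out the chosen probes. Of the 150 members themselves, 87 were chosen again without arrays 5 and 6, 119 without arrays 1 and 2 and 129 without arrays 3 and 4. Leaving out a single blue-light array kept 145 to 148 members, and leaving out a single white-light array 135 to 144. The rule applied to the blue-light arrays alone shared 55 members with the list, and applied to the white-light arrays alone 86.

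When spread was measured as the SD of the normalized log2 level in place of the range of rank, the 150 flattest probes shared 52 with the members. Their median mean rank was 0.737, 94 of them lay under 0.8, and 25 lay above 0.9. Their SD over 12 arrays had a median of 0.323, against 0.457 for the members.

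The members were spread over the probe numbers. When the numbers were cut into 3 equal stretches, they made up 11.2%, 8.89% and 9.53% of the probes that passed the level filters. By the remainder of the probe number after division by 6, their share was 8.15% to 11.9% for remainders 1 to 5, and 0 of 6 probes for remainder 0. For 6 members the next probe number was also a member.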

How the data were processed

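Expression of total RNA was read on 12 arrays, and the authors' values are deposited as a relative spot intensity per probe and array, on a linear scale from 0 to 100. For RNA labelling, background correction and array scaling, the labels and the table's header state no method. The members and the lists were chosen with earlier results of these data known. Probe names come from GEO's platform annotation, and only probes with a single gene were named, with symbols updated through RefSeq (690 of 692 matched).

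Ranks used the deposited intensities with ties averaged. For the fit, zeros were set to missing, the log2 of the rest was quantile normalized with no pseudocount, and 2776 probes above 0 on at least 4 arrays of each group were tested with limma 3.58.1 in R 4.3.3 (lmFit, eBayes, two-sided, Benjamini-Hochberg over all tested probes, threshold 0.05, no covariates). P-values measure only the spread between these arrays, which may be technical. Like the SEs and SDs, they count the 6 arrays of a group as independent, although these resembled each other in pairs. The limma script was tested on simulated data with independent arrays, which cannot show how the calls hold for arrays that resemble each other in pairs.

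Arrays of the same number deviated together in both groups (correlation of deviations 0.198 to 0.381 over 2378 probes, for all 6 numbers). Each array correlated best with the array of the same number in the other group. The labels state no pairing, and what such arrays share was not tested. Sets of arrays 1 and 2, 3 and 4, and 5 and 6 follow an earlier look at these arrays.

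Members picked for naming are the 4 steadiest, the 2 with the highest and lowest mean rank, the 2 largest fitted differences in each direction, and 2 on each side of the limit. Those with a single gene were added later, and not all 28 of them are described. Alternatives covered normalization, filters, a pseudocount of 0.02, the replicate block, averaged sets, leaving out arrays and other forms of the rule. Figures used matplotlib 3.10.9.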

Additional observations from a re-analysis of the deposited data

Results flagged for a closer look

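Among 86 groups of 6 values examined, 3 held an array far from the others, where chance flags about 1 group in 20. All are normalized log2 levels of members on blue-light arrays. Probe 3593, the last member inside the limit, was at -0.91 on blue-light array 5, against 0.37 or more on the other blue-light arrays. PSBY was at 0.58 on blue-light array 6, against 0.70 or more on the others, a small gap in a tight group. Probe 3980, the dimmest member, was at -1.91 on blue-light array 3, against -2.12 or less on the others. The cause was not tested.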

How the results depend on the processing

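Of 2776 probes, 1257 were called, and 1087 to 1271 when single arrays were left out, with 53 to 66 members called and a median log2 fold change of the members of -0.16 to -0.07. With single arrays left out, 39.9% to 46.7% of the tested probes and 35.3% to 44.0% of the members were called. The replicate block gave 1371 probes (49.4% of those tested) and 65 members (43.3%) and moved no count by over 1.5 times. Averaged sets, which take fewer independent samples, gave 521 probes (18.8% of those tested) and 13 members (8.67%). Without arrays 1 and 2 of both groups 807 probes (30.3% of those tested) and 34 members (22.7%) were called, from fewer arrays. Without arrays 3 and 4 there were 938 probes (34.4% of those tested) and 34 members (22.7%), also from fewer arrays. Without arrays 5 and 6 there were 1393 probes (51.3% of those tested) and 77 members (51.3%). Probes above the median level gave 726, from fewer probes tested. The members' median log2 fold change, -0.13 as reported, was 0.88 without normalization, 0.33 under median centring and 0.0449 when scaled to the members, which sets their mean to 0. Of the 40 members picked for naming, which include all 28 with a single gene, 20 turned sign without normalization and 12 under median centring, called or not. Among those called, the sign turned without normalization for probe 1012 (0.59), CML30 (probe 1479, 0.0640), AT2G38550 (probe 3369, 0.0235) and AT4G27700 (probe 2344, 0.0944), and under median centring for probe 1012 (0.0418). The split of calls was 45.9% higher under median centring, 48.9% under cyclic loess and 50.7% with a pseudocount. Of the 150 members, other forms of the rule shared 87 without arrays 5 and 6, 55 on blue-light arrays alone, 86 on white-light arrays alone, 55 with the brightest probes kept in and 52 with the SD of log2 levels; the single-group forms were chosen after seeing the data. The cause of the scaling shifts was not tested. Of the 999 single-probe comparisons 935 moved by less than the spread between arrays. The 999 pool all alternatives, and most of these kept the scaling between arrays. Without normalization none of the 40 members picked for naming was among the 935, and under median centring many were not. Single arrays left out kept 135 to 148 members.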
